A study of Saccharomyces cerevisiae with 15 samples.

Results

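The mitochondrial ribosomal protein genes described here are 55 nuclear genes of Saccharomyces cerevisiae, chosen by their MRPL, MRP, RSM and MRPS names and systematic identifiers among the 7127 rows of the count table. Of these, 36 encode proteins of the large subunit and 19 are assigned to the small subunit of the mitochondrial ribosome. All 55 had reads in every library, with at least 200 counts each, and all passed the filter on low counts. RNA was sequenced from 15 libraries in 5 groups of 3 biological replicates of the W303 strain. PSD1_OE_pdr3_KO cells overexpressed Psd1, a mitochondrial inner membrane enzyme of phospholipid synthesis, and lacked PDR3, and PSD1_OE cells overexpressed Psd1 with PDR3 present. MTSMGE1_OE_pdr3_KO and MTSMGE1_OE cells, without and with PDR3, overexpressed the presequence of Mge1 (residues 1 to 44) fused to mCherry. MTSMSS116_OE cells, with PDR3, overexpressed the presequence of Mss116 (residues 1 to 53) fused to mCherry and served as the control. Below, the groups are called Psd1 pdr3Δ, Psd1 PDR3, MTS-Mge1 pdr3Δ, MTS-Mge1 PDR3 and MTS-Mss116 PDR3 cells. Each construct was driven by a galactose-responsive promoter, and cells were taken 4 h after 1% galactose was added. The labels list an empty 2μ plasmid as the genotype of every sample, and libraries of cells with an empty plasmid alone were not analysed here. The sources used here do not fully describe how the strains with Psd1 and with a presequence differ beyond the construct. The parts of strain and construct cannot be told apart.

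The mitochondrial ribosome makes the few proteins that mitochondrial DNA encodes, most of them core subunits of the respiratory chain and ATP synthase. Its RNAs and the protein Var1 come from mitochondrial DNA, whereas its other proteins are made from nuclear genes in the cytosol and imported through presequences or other signals. Part of these proteins descend from bacterial ribosomal proteins, and the rest were added in the mitochondrial lineage. In yeast, mRNAs of this gene family are classical targets of Puf3, an RNA-binding protein of the mitochondrial outer surface that recognises a short element after the stop codon. Overexpression of Psd1 burdens protein import, and Pdr3 is the transcription factor that activates the mitoCPR, a response to import defects. The comparisons below ask whether the mitochondrial ribosomal protein genes, which depend on this import route, differ between the constructs and with PDR3.

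The libraries held between 9128340 and 15953700 counts each. PDR3 had 0 or 1 count in each pdr3Δ library, against 921 to 4469 counts in the PDR3 libraries, and PSD1 had at least 162192 counts in the 6 libraries with Psd1, against at most 3349 in the other 9. The 5 genes specific for MATa cells summed to between 1043 and 1477 CPM (counts scaled to the TMM-normalized size of the library) and the 4 genes specific for MATα cells to between 71.2 and 127 CPM. Replicate 2 lay below its group mean for 54, 52, 50, 36 and 54 of the 55 members in Psd1 pdr3Δ, Psd1 PDR3, MTS-Mge1 pdr3Δ, MTS-Mge1 PDR3 and MTS-Mss116 PDR3 cells, with median deviations between -0.11 and -0.02 on the log2 scale. In MTS-Mge1 PDR3 cells replicate 1 was the lowest, below the group mean for 38 members with a median deviation of -0.04. CPM values are relative to the TMM-normalized size of the library, so in these bulk samples fewer cells of a kind and less RNA per cell cannot be told apart.

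The element that Puf3 binds, searched as TGTANATA on the coding strand within 200 bases after the stop codon, was present in 54 of the 55 genes (98.2%), against 844 of 5989 nuclear protein-coding genes of the table (14.1%). It stood in 36 of 36 large subunit genes and in 18 of 19 small subunit genes, and the gene without it was RSM22 (YKL155C). The first match began between 8 and 139 bases after the stop codon, with a median of 51.5 bases, and in 50 genes it began within 100 bases. The variable base was A in 25 genes, T in 18, C in 10 and G in 1, and 12 genes held more than 1 match. Of the genes listed below, RSM19 held 3 matches and MRPS16 and MRPL28 held 2 each. The sites below are the first matches after the stop codon in genes that the comparisons turn on. They are printed 5′ to 3′ on the coding strand of the RefSeq R64 genome, with the element in capitals and 8 bases on either side.
RSM19: ggatctagTGTATATAgatttcta
MRPS16: gtatatgtTGTATATAtgttttac
MRPL28: tctcctgcTGTAAATAactgatga
MRPL51: attatactTGTATATAtaatttgg
MRPL31: atttcatcTGTATATAgtttaatc
MRPL25: tctaatcaTGTAAATAattttgtg
MRPL16: tgtatacaTGTATATAactattga
MRPL44: agcaagccTGTAAATAatatatat
These windows lie, in R64 coordinates, for RSM19 at chrXIV:695027-695050 (- strand), MRPS16 at chrXVI:528884-528907 (- strand), MRPL28 at chrIV:1386540-1386563 (+ strand), MRPL51 at chrXVI:730253-730276 (+ strand), MRPL31 at chrXI:185228-185251 (- strand), MRPL25 at chrVII:637011-637034 (- strand), MRPL16 at chrII:146903-146926 (+ strand) and MRPL44 at chrXIII:720857-720880 (- strand). All of them follow the stop codon of the gene named. The promoter motifs searched were found in shares of members nearer to those of all genes. In the 300 bases before the start codon, CCAAT, the core that the respiratory activator Hap2/3/4/5 recognises, was found on either strand in 22 members (40%), against 41.8% of all genes. AATTTT, a motif reported for genes of rapid growth, was found on either strand in 21 members (38.2%), against 54.1% of all genes. The Pdr1 and Pdr3 response element, searched as TCCGCGGA or TCCGTGGA on either strand, was found in 1 member, MRPL44 (YMR225C), and in 0.634% of all genes. A match to these letters is a description of the sequence and does not show that a factor binds there.

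Most members stood within a narrow range of levels. In MTS-Mss116 PDR3 cells the median member stood at 225 CPM per kb of coding length, against 52.3 CPM per kb for the 5790 nuclear protein-coding genes tested, and at 225 CPM per kb in the large and 208 CPM per kb in the small subunit. The middle range of members, from the lower to the upper quartile, ran from 191 to 262 CPM per kb. In the large subunit MRPL39 (YML009C, bL33m) had the highest level at 420.2 ± 38.6 CPM per kb and MRPL38 (YKL170W, uL14m) the lowest at 50.8 ± 8.65 CPM per kb (SD, n = 3). In the small subunit MRPS16 (YPL013C, bS16m) had the highest level at 384.5 ± 10.3 CPM per kb and RSM22 the lowest at 65.8 ± 5.82 CPM per kb (SD, n = 3). RSM22 also stands apart by annotation, since RefSeq names its product a tRNA methyltransferase rather than a ribosomal protein. Genes of the cytosolic ribosome reached a median of 1956 CPM per kb, and the nuclear genes of oxidative phosphorylation 1075 CPM per kb.

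The summed levels of both subunits were higher in every library with Psd1 than in any library with a presequence. The 36 large subunit genes summed to 6670, 6042 and 6662 CPM in Psd1 pdr3Δ cells and to 6306, 5989 and 6719 CPM in Psd1 PDR3 cells. They summed to 5663, 5137 and 5627 CPM in MTS-Mge1 pdr3Δ cells, to 4950.3, 5036 and 5303 CPM in MTS-Mge1 PDR3 cells, and to 5175, 4853 and 5608 CPM in MTS-Mss116 PDR3 cells. The lowest library with Psd1 thus stood above the highest of the other 9. The 19 small subunit genes summed to 4002, 3649.7 and 4028 CPM in Psd1 pdr3Δ cells and to 3849, 3595 and 4037 CPM in Psd1 PDR3 cells. They summed to 3446, 3096 and 3348 CPM in MTS-Mge1 pdr3Δ cells, to 2974, 3024 and 3098 CPM in MTS-Mge1 PDR3 cells, and to 3139, 2907 and 3346 CPM in MTS-Mss116 PDR3 cells. The groups again did not overlap across this divide. The large to small ratio stayed between 1.64 and 1.71 in all 15 libraries, from 1.64 to 1.67 in the 6 libraries with Psd1 and from 1.64 to 1.71 in the other 9. In Psd1 PDR3 cells over MTS-Mss116 PDR3 cells, the ratio of the mean sums was 1.22 for the large and 1.22 for the small subunit, and over MTS-Mge1 PDR3 cells it was 1.24 and 1.26. These sums are a description, because members are not replicates of a condition. Their values by library are plotted below for each subunit.

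**Figure D1:**
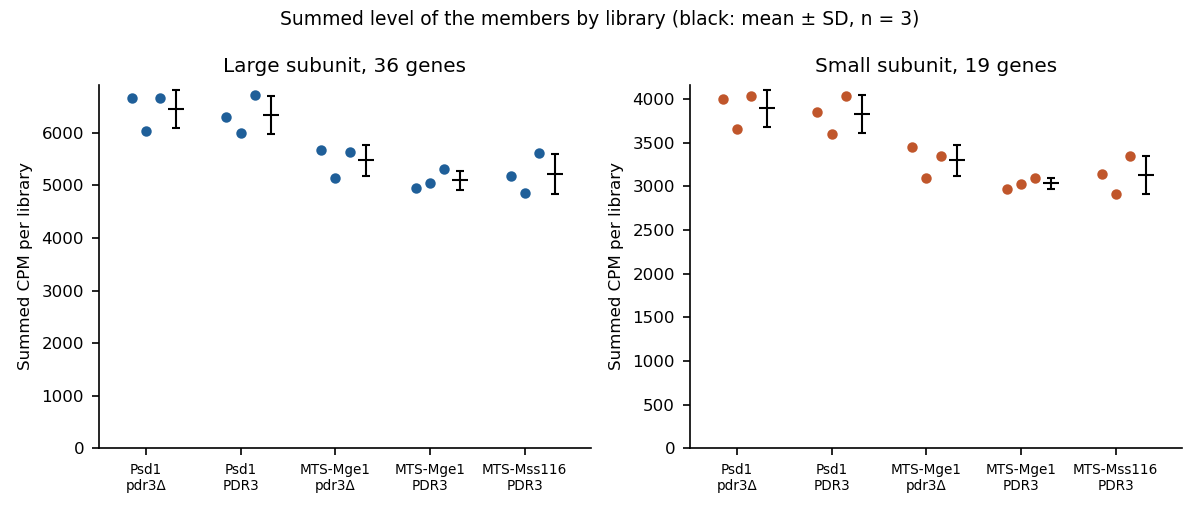
Summed CPM of the 36 large subunit genes (left) and the 19 small subunit genes (right) in each of the 15 libraries, by group, with the mean and SD of 3 replicates in black. The 6 libraries with Psd1 lie between 5989 and 6719 CPM for the large subunit, above the other 9, which lie between 4853 and 5663 CPM.

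In Psd1 PDR3 over MTS-Mss116 PDR3 cells, which asks how Psd1 overexpression compares with the control presequence, 12 of the 55 members were higher and 0 lower at an adjusted p of 0.05 or less (edgeR's quasi-likelihood test, adjusted over 6168 genes). Of the 12, 9 were large subunit genes and 3 small subunit genes, and the largest rise was 1.68-fold. No member changed by 2-fold. All genes tested were called higher in 4.25% and lower in 1.91% of cases, against 21.8% and 0% of the members. The log2 fold change was positive for 53 members, with a median of 0.31 for the members, 0.31 for the large subunit, 0.33 for the small subunit and 0.01 for all genes tested. In 44 members all 3 libraries with Psd1 stood above all 3 control libraries, which held for 15.9% of all genes. The count of calls depended on single libraries. It was 2, 1 and 2 without Psd1 PDR3 replicate 1, 2 or 3, and 1, 23 and 6 without MTS-Mss116 replicate 1, 2 or 3. The calls over all genes moved too, from 380 to 94, 50 and 112, and to 87, 1503 and 202, in the same order. The median log2 fold change of the members stayed between 0.25 and 0.36. At an unadjusted p under 0.05, 43 members were higher and 0 lower, where 24.5% of all genes passed in either direction. By DESeq2 28 members were higher and 0 lower, where 524 of all 6168 genes were higher and 406 lower.

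RSM19 and MRPS16, both of the small subunit, had the largest changes. RSM19 (YNR037C), which encodes uS19m of the small subunit, had 112.7, 109.7 and 124.2 CPM in Psd1 PDR3 cells, against 66.8, 66.8 and 74.9 CPM in MTS-Mss116 PDR3 cells. The groups did not overlap, with a log2 fold change of 0.75 ± 0.09 (SE) and an adjusted p of 0.00772. MRPS16, which encodes the homologue of bacterial S16, had 214.9, 212.4 and 236.7 CPM in Psd1 PDR3 cells, against 143.0, 136.4 and 142.8 CPM in MTS-Mss116 PDR3 cells. These groups were likewise apart, with a log2 fold change of 0.67 ± 0.08 (SE) and an adjusted p of 0.00635. RSM10 (YDR041W, uS10m), the other small subunit gene called, had 206.6, 204.1 and 224.1 CPM in Psd1 PDR3 cells, against 156.1, 159.2 and 163.5 CPM in the control. Its groups did not overlap, with a log2 fold change of 0.42 ± 0.07 (SE) and an adjusted p of 0.022. That change was smaller than those of several large subunit genes, among them MRPL28, MRPL51 and MRPL31.

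Among the large subunit genes, proteins added in the mitochondrial lineage and proteins of bacterial origin both appeared. MRPL28 (YDR462W), which encodes the mitochondria-specific mL40, had 146.6, 153.2 and 167.5 CPM in Psd1 PDR3 cells, against 106.8, 99.4 and 110.0 CPM in MTS-Mss116 PDR3 cells. Its log2 fold change was 0.58 ± 0.08 (SE) with an adjusted p of 0.0129, and the groups did not overlap. MRPL31 (YKL138C, mL60) had 181.6, 174.5 and 185.7 CPM in Psd1 PDR3 cells, against 117.6, 123.6 and 141.7 CPM in the control, a log2 fold change of 0.52 ± 0.09 (adjusted p 0.0241). MRPL51 (YPR100W, mL43) had 49.5, 41.2 and 45.7 CPM in Psd1 PDR3 cells, against 30.8, 29.5 and 33.9 CPM in the control, a log2 fold change of 0.55 ± 0.11 (adjusted p 0.0315). MRPL51 overlaps the dubious reading frame YPR099C on the other strand, and the strand setting of the counting is not given in the sources used here, so its counts are less certain. MRPL16 (YBL038W), whose product uL16m lies near the catalytic centre and whose deletion the study used to obtain cells without intact mitochondrial DNA, had 175.3, 163.7 and 181.3 CPM in Psd1 PDR3 cells, against 130.7, 126.7 and 138.0 CPM in the control. Its log2 fold change was 0.41 ± 0.08 with an adjusted p of 0.0294. The other called genes, MRPL49 (YJL096W, bL21m), MRPL23 (YOR150W, uL13m), MRPL27 (YBR282W, mL41), MRPL6 (YHR147C, uL6m) and MRP20 (YDR405W, uL23m), had log2 fold changes between 0.35 and 0.50 and adjusted p-values between 0.0225 and 0.0484. By origin, 8 of the 34 members with a bacterial counterpart and 4 of the 21 without were called, with median log2 fold changes of 0.31 and 0.35.

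In the remaining 5 called genes the groups did not overlap either. MRPL49, the counterpart of bacterial L21, had 172.0, 153.8 and 178.1 CPM in Psd1 PDR3 cells, against 118.9, 108.5 and 131.7 CPM in MTS-Mss116 PDR3 cells. MRPL23, the counterpart of bacterial L13, had 220.9, 209.0 and 213.9 CPM in Psd1 PDR3 cells, against 154.9, 141.8 and 170.1 CPM in MTS-Mss116 PDR3 cells. Neither gene's groups overlapped. MRPL27 had 133.7, 133.8 and 154.8 CPM in Psd1 PDR3 cells, against 107.3, 92.3 and 108.8 CPM in the control. MRPL6 had 169.0, 164.7 and 181.2 CPM in Psd1 PDR3 cells, against 128.9, 126.3 and 133.7 CPM in the control. Both belong to the large subunit, and in both all 3 libraries with Psd1 were the higher ones. MRP20, whose product lies at the tunnel exit where new proteins leave the ribosome, had 258.4, 280.9 and 268.3 CPM in Psd1 PDR3 cells, against 216.3, 206.1 and 215.8 CPM in the control, also without overlap.

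A few members stood apart from the rest. RSM22 had 114.2, 119.6 and 118.9 CPM in Psd1 PDR3 cells, against 128.9, 111.5 and 131.8 CPM in MTS-Mss116 PDR3 cells, and the groups overlapped. Its log2 fold change was -0.06 ± 0.09 with a 95% interval from -0.27 to 0.15. MRPL9 (YGR220C, uL3m) had 129.9, 121.3 and 125.9 CPM in Psd1 PDR3 cells, against 132.1, 114.0 and 143.3 CPM in the control, with a log2 fold change of -0.03 ± 0.10 and overlapping groups. RSM23 (YGL129C), the mS29 protein and yeast counterpart of human DAP3, had 237.4, 223.6 and 257.5 CPM in Psd1 PDR3 cells, against 248.3, 214.7 and 255.0 CPM in the control, with a log2 fold change of 0.02 ± 0.10 and an adjusted p of 0.95. The sign turned for MRPL9 without MTS-Mss116 PDR3 replicate 3 (0.039) and for RSM23 without Psd1 PDR3 replicate 1 or 3 or MTS-Mss116 PDR3 replicate 2 (-0.00493, -0.061 and -0.060). MRPL9, RSM23, MRPL3 (YMR024W), MRPL10, MRPL17 (YNL252C), MRP7, RSM26 and MRPS35 (YGR165W) were the 8 members that reached an unadjusted p under 0.05 in none of the 3 comparisons of Psd1 with a presequence. MRPL9, RSM23 and the other 6 all hold the Puf3 element.

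**Figure D2:**
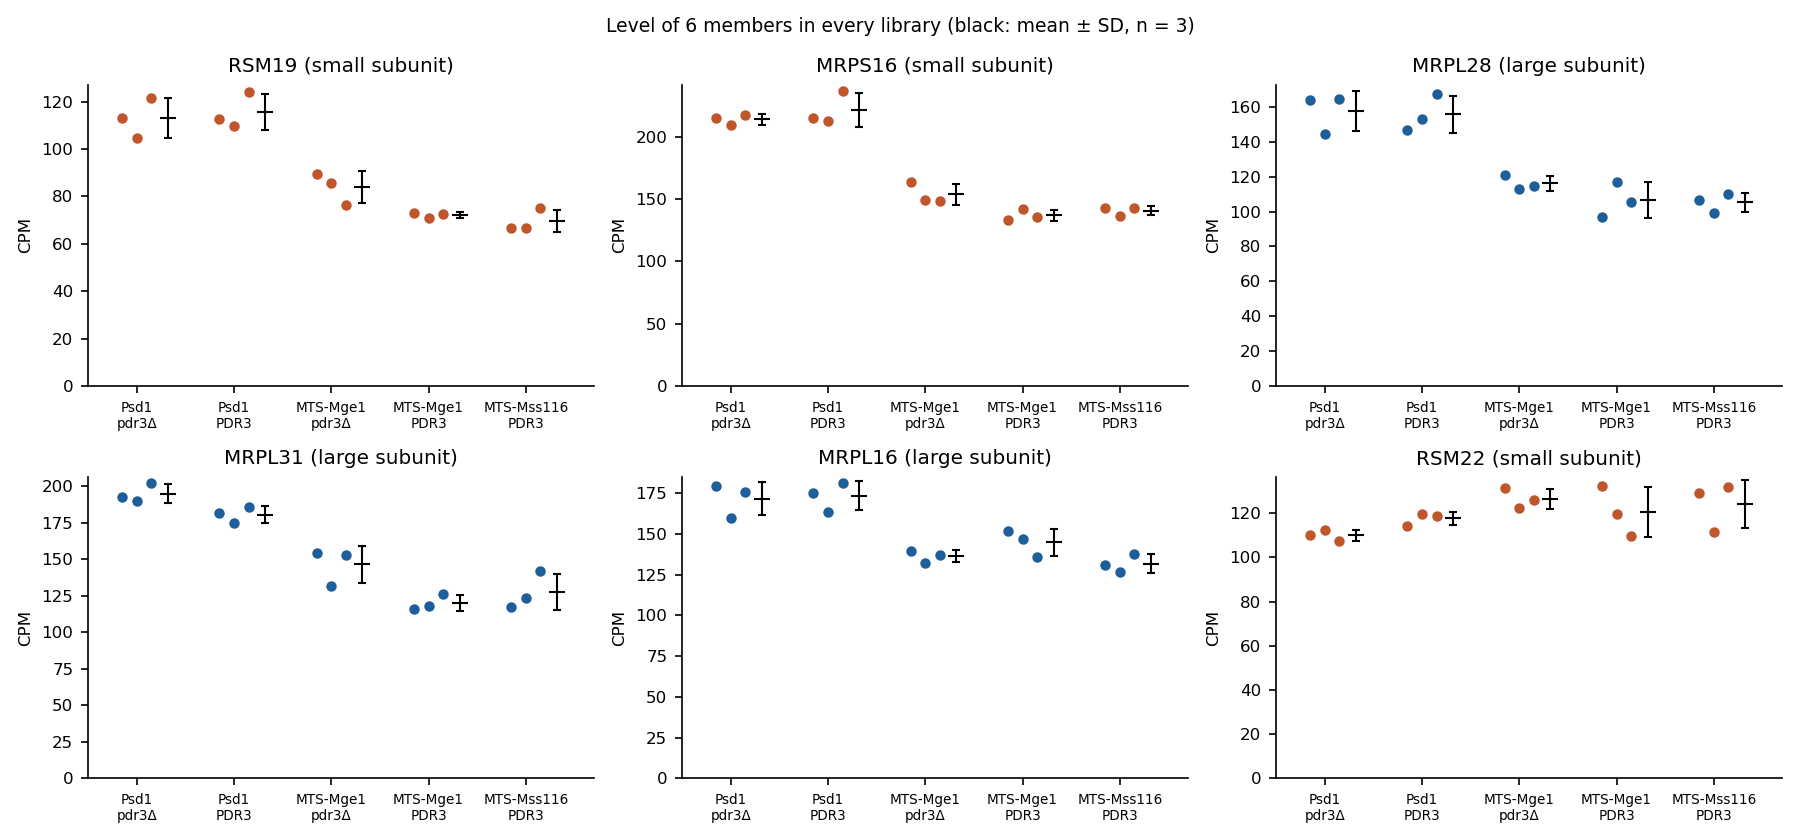
CPM in each of the 15 libraries for 6 members, by group, with the mean and SD of 3 replicates in black and the axis from 0. RSM19, MRPS16, MRPL28, MRPL31 and MRPL16 lie higher in all 6 libraries with Psd1 than in the other 9, and RSM22 does not.

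Psd1 was also compared with the Mge1 presequence, which, unlike that of Mss116, was studied as a signal to the nucleus. Psd1 PDR3 cells over MTS-Mge1 PDR3 cells had 22 of the 55 members higher and 0 lower at an adjusted p of 0.05 or less, 14 in the large and 8 in the small subunit. Over all 6157 genes, 3.43% were called higher and 1.46% lower. The log2 fold change was positive for 54 members, with a median of 0.35, against -0.01 for all genes tested. In 47 members the 3 libraries with Psd1 all stood above the 3 with the Mge1 presequence, as in 14.4% of all genes. The count was 2, 4 and 4 without Psd1 PDR3 replicate 1, 2 or 3, and 3, 4 and 25 without MTS-Mge1 PDR3 replicate 1, 2 or 3. The calls over all genes moved too, from 301 to 41, 61 and 174, and to 107, 66 and 426, in the same order. The members' median stayed between 0.31 and 0.39. At an unadjusted p under 0.05, 43 members were higher and 0 lower, where 21.3% of all genes passed in either direction. By DESeq2 38 were higher and 0 lower, where 372 of all 6157 genes were higher and 273 lower. This comparison shares its Psd1 libraries with the previous one, so the resemblance of their lists is no independent finding.

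MRPS16 had 133.1, 141.7 and 135.9 CPM in MTS-Mge1 PDR3 cells, and its log2 fold change in Psd1 PDR3 cells over these was 0.68 ± 0.08 (adjusted p 0.00639). RSM19 had 72.9, 70.8 and 72.5 CPM in MTS-Mge1 PDR3 cells, a log2 fold change of 0.67 ± 0.07 (adjusted p 0.00464). Both small subunit genes again had groups that did not overlap. MRPL25 (YGR076C), which encodes the mitochondria-specific mL59, had 112.3, 98.8 and 123.4 CPM in Psd1 PDR3 cells, against 69.5, 73.0 and 79.2 CPM in MTS-Mge1 PDR3 cells, with a log2 fold change of 0.58 ± 0.10 (SE) and an adjusted p of 0.0182. MRPL31 had 116.2, 118.0 and 126.4 CPM in MTS-Mge1 PDR3 cells, and its log2 fold change was 0.58 ± 0.07 (adjusted p 0.00811). MRPL51 had 32.8, 29.0 and 29.6 CPM there, and its log2 fold change was 0.57 ± 0.10 (adjusted p 0.0255). The 22 called genes also took in RSM7 (YJR113C, uS7m), RSM27 (YGR215W, mS33), MRPS18 (YNL306W, uS11m) and MRPL44, with log2 fold changes between 0.39 and 0.49. MRPL16 had 151.8, 147.0 and 136.0 CPM in MTS-Mge1 PDR3 cells and 0.25 ± 0.08 on the log2 scale, and did not pass (adjusted p 0.134), although its groups did not overlap. RSM22 had 132.4, 119.6 and 109.9 CPM in MTS-Mge1 PDR3 cells and a log2 fold change of -0.05 ± 0.08, which became 0.043 without MTS-Mge1 PDR3 replicate 1.

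The same contrast was made without PDR3. Psd1 pdr3Δ cells over MTS-Mge1 pdr3Δ cells had 6 members higher and 0 lower, 3 in each subunit, where 2.19% of the 6161 genes were called higher and 1.74% lower. The log2 fold change was positive for 53 members, with a median of 0.24, against 0.01 for all genes tested. All 3 libraries with Psd1 stood above all 3 with the presequence in 41 members, as in 15.2% of all genes. The 6 calls were near the threshold, with adjusted p-values between 0.027 and 0.0489. Their count was 0 without any 1 of the 3 Psd1 pdr3Δ libraries or without MTS-Mge1 pdr3Δ replicate 1, and 1 without MTS-Mge1 pdr3Δ replicate 2. Over all genes, 242 were called with all libraries. Only 4, 16 and 10 were called without Psd1 pdr3Δ replicate 1, 2 or 3, and 3 and 183 without MTS-Mge1 pdr3Δ replicate 1 or 2. The members' median log2 fold change stayed between 0.21 and 0.29 with a library left out. The count of members called was 2 with RLE size factors or with total library size. It was also 2 with no filter on low counts or with at least 10 counts required in every library. Between 186 and 231 of all genes were called with these settings. The member count was 17 with DESeq2, which called 305 of all genes higher and 282 lower. At an unadjusted p under 0.05, 36 members were higher and 1, RSM22, was lower, where 21.2% of all genes passed in either direction.

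MRPS16 had 214.8, 209.2 and 217.5 CPM in Psd1 pdr3Δ cells, against 163.4, 149.5 and 148.4 CPM in MTS-Mge1 pdr3Δ cells, a log2 fold change of 0.47 ± 0.08. MRPL28 had 164.1, 144.3 and 164.3 CPM in Psd1 pdr3Δ cells, against 121.1, 113.1 and 114.6 CPM in MTS-Mge1 pdr3Δ cells, a log2 fold change of 0.43 ± 0.08 (adjusted p 0.0372). RSM19 had 113.2, 104.4 and 121.5 CPM in Psd1 pdr3Δ cells, against 89.6, 85.6 and 76.3 CPM in MTS-Mge1 pdr3Δ cells, a log2 fold change of 0.43 ± 0.09 (adjusted p 0.0489). In all 3 genes the groups were apart. MRPS18 had 319.3, 287.2 and 301.5 CPM in Psd1 pdr3Δ cells, against 241.1, 208.7 and 229.1 CPM in MTS-Mge1 pdr3Δ cells, and a log2 fold change of 0.41 ± 0.09. MRPL31 had 192.3, 189.9 and 202.1 CPM in Psd1 pdr3Δ cells, against 154.6, 131.7 and 152.9 CPM in MTS-Mge1 pdr3Δ cells, with 0.41 ± 0.09 on the log2 scale, and MRPL27 completed the calls with 0.38 ± 0.08. MRPL16 reached 0.33 ± 0.08 without passing (adjusted p 0.0636). RSM22 went the other way, with 109.9, 112.3 and 107.4 CPM in Psd1 pdr3Δ cells, against 131.2, 122.1 and 126.1 CPM in MTS-Mge1 pdr3Δ cells. Its groups did not overlap, its log2 fold change was -0.21 ± 0.07, and it did not pass (adjusted p 0.143). MRPL27, MRPL28, MRPL31, MRPS16 and RSM19 were the 5 members called in all 3 comparisons of Psd1 with a presequence.

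**Figure D3:**
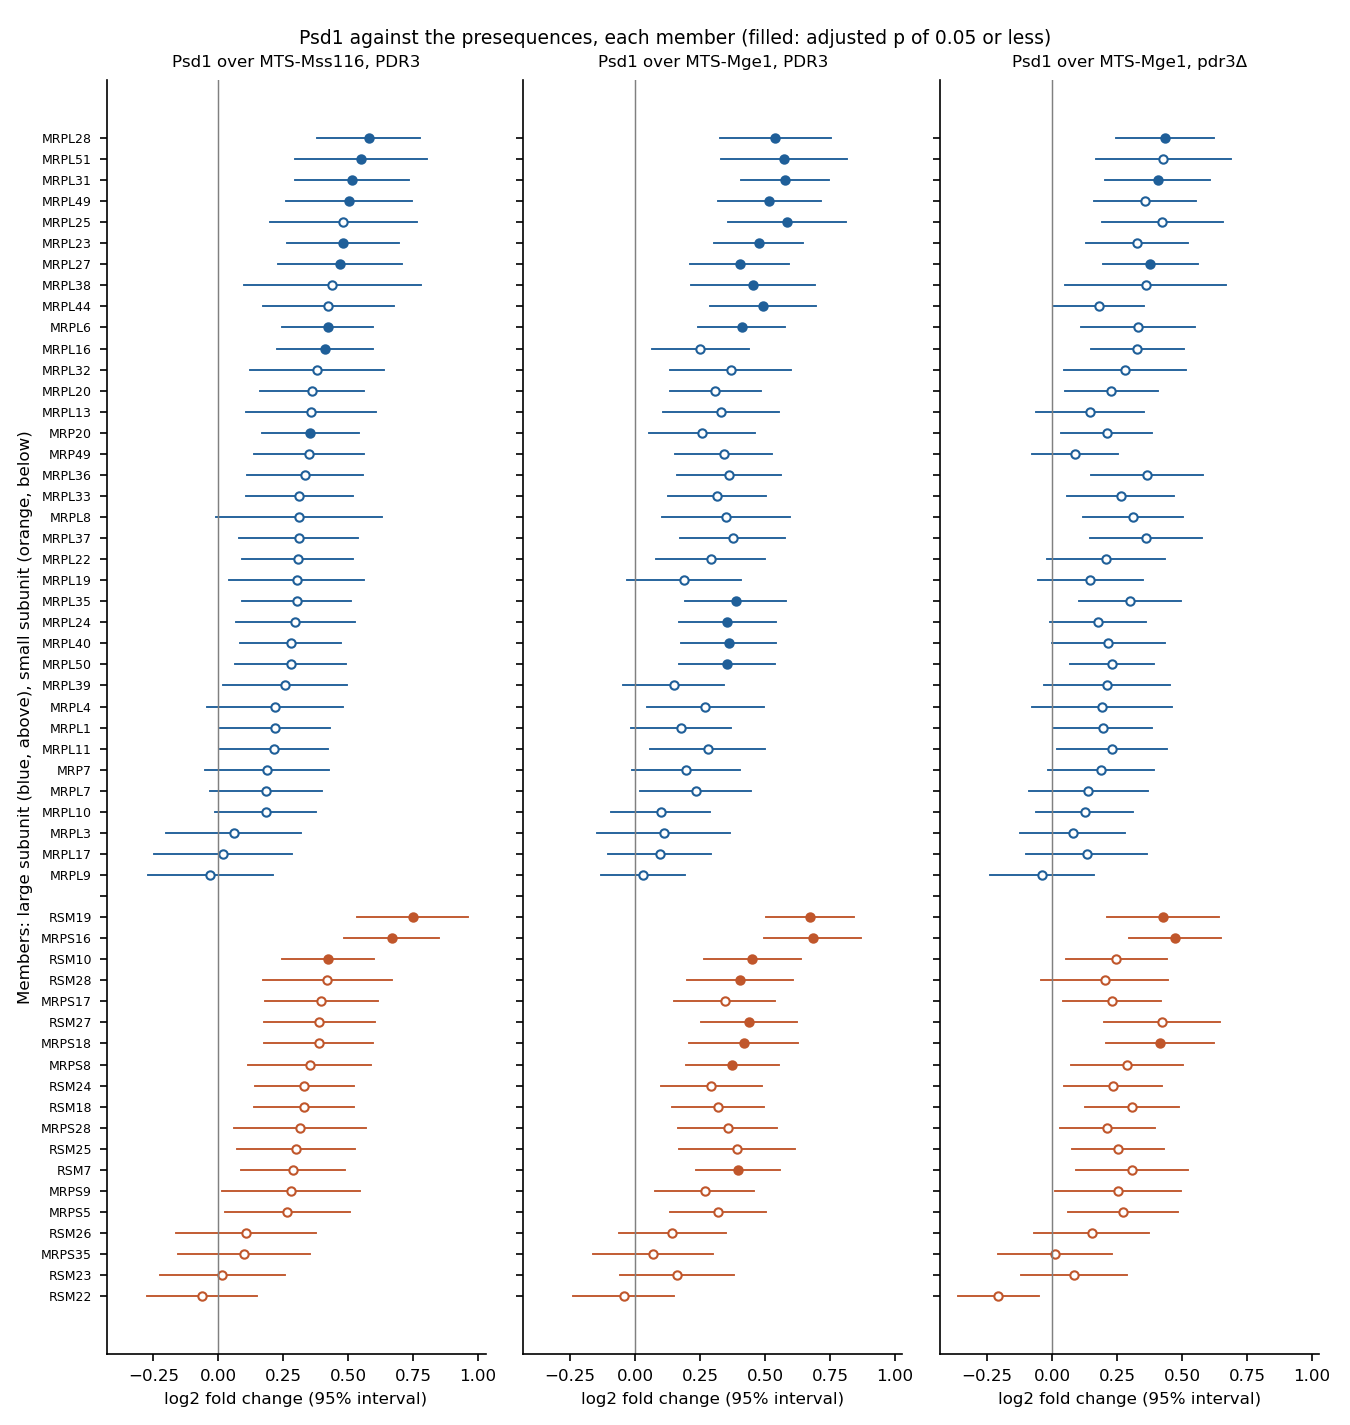
log2 fold change of each member with its 95% interval in the 3 comparisons of Psd1 with a presequence, the large subunit in blue above and the small subunit in orange below, each sorted by the left panel. Filled points have an adjusted p of 0.05 or less (12, 22 and 6 members from left to right), and nearly all points lie right of 0 in every panel.

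Across all 5 groups, 39 of the 55 members differed at an adjusted p of 0.05 or less (25 of 36 large and 14 of 19 small subunit genes), against 15.1% of the 6251 genes tested. This count stayed between 31 and 39 when any 1 library was left out, where between 690 and 1206 of all genes were called, against 945. The smallest adjusted p-values in the small subunit were those of MRPS16 (8.22e-06), RSM19 (4.16e-05), MRPS18, RSM10 and RSM27, and in the large subunit those of MRPL31 (0.000135), MRPL28, MRPL23, MRPL49 and MRPL6 (edgeR). A further count was chosen after the values were seen. In 32 members (58.2%), 20 of the large and 12 of the small subunit, all 6 libraries with Psd1 stood above all of the other 9, a pattern found in 4.98% of all genes. MRPL38, the large subunit gene with the lowest level, was among them with 26.8, 25.1 and 29.8 CPM in Psd1 pdr3Δ cells and 27.4, 28.5 and 29.3 CPM in Psd1 PDR3 cells. It had 24.4, 20.1 and 18.9 CPM in MTS-Mge1 pdr3Δ cells, 21.6, 19.2 and 21.1 CPM in MTS-Mge1 PDR3 cells and 23.1, 17.0 and 23.4 CPM in MTS-Mss116 PDR3 cells. MRPL39, the one with the highest level per kb, was not, since its libraries overlapped between 108.6, 96.7 and 112.2 CPM in Psd1 PDR3 cells and 111.7, 90.3 and 90.8 CPM in MTS-Mge1 pdr3Δ cells.

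Shorter members had larger differences. In Psd1 PDR3 over MTS-Mss116 PDR3 cells, the 18 members with a coding length of 213 to 477 bases had a median log2 fold change of 0.41. The 19 members of 486 to 810 bases had 0.36, and the 18 members of 837 to 1887 bases had 0.22. Over MTS-Mge1 PDR3 cells the medians were 0.42, 0.35 and 0.25 in the same order, and between the pdr3Δ groups 0.36, 0.25 and 0.19. Other nuclear protein-coding genes of the same 3 length ranges had medians between -0.02 and 0.07 in these comparisons. Pearson's r of log2 fold change with the log2 of coding length over the 55 members was -0.64, -0.59 and -0.60, and over all nuclear protein-coding genes tested -0.04, -0.03 and -0.06. These values are across genes, which share libraries and are not independent, and the 3 comparisons share groups. RSM22 is the longest member. The plot of log2 fold change against coding length shows the same order.

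**Figure D4:**
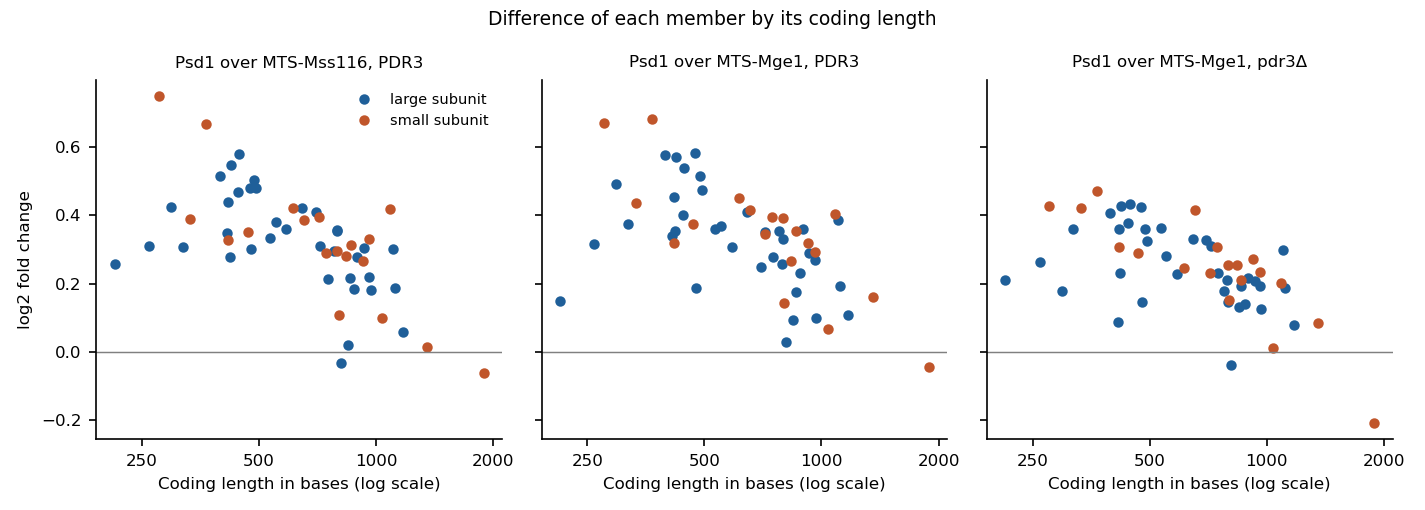
log2 fold change of the 55 members against their coding length on a log axis, for the 3 comparisons of Psd1 with a presequence, with large subunit genes in blue and small subunit genes in orange. RSM19 (276 bases) and MRPS16 (366 bases) lie near the top of each panel, and RSM22 (1887 bases), the longest, lies at the bottom.

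No difference between the presequences was detected in this gene family. In MTS-Mge1 PDR3 over MTS-Mss116 PDR3 cells, 0 of the 55 members passed by edgeR or by DESeq2, and 0 reached an unadjusted p under 0.05 by either. Of the 6184 genes, 0.647% were called and 7.02% reached an unadjusted p under 0.05 by edgeR. The log2 fold changes ran from -0.16 to 0.15 with a median of -0.03, and the 95% intervals of all members lay between -0.41 and 0.35. MRPL16, with the smallest p, had 151.8, 147.0 and 136.0 CPM in MTS-Mge1 PDR3 cells, against 130.7, 126.7 and 138.0 CPM in MTS-Mss116 PDR3 cells, overlapping groups and a log2 fold change of 0.15 ± 0.09. RSM23 had 193.8, 221.3 and 222.9 CPM in MTS-Mge1 PDR3 cells, against 248.3, 214.7 and 255.0 CPM in MTS-Mss116 PDR3 cells, and -0.16 ± 0.11 on the log2 scale, again with overlap. With 3 replicates, a difference within a member's own interval is not excluded for that member.

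No member passed the test for the deletion of PDR3 under Psd1. In Psd1 pdr3Δ over Psd1 PDR3 cells, 0 members passed by edgeR or DESeq2, 1 reached an unadjusted p under 0.05 by edgeR and 0 by DESeq2, where 0.715% of the 6150 genes were called and 13.2% reached an unadjusted p under 0.05 by edgeR. The members' median log2 fold change was 0.03, and their 95% intervals lay between -0.38 and 0.35. The gene with the smallest p was MRPL44, a mitochondria-specific protein of the large subunit (mL53) and the member with the Pdr1 and Pdr3 response element. It had 90.8, 92.1 and 99.4 CPM in Psd1 pdr3Δ cells, against 110.6, 97.9 and 114.8 CPM in Psd1 PDR3 cells, with overlapping groups, a log2 fold change of -0.20 ± 0.08 and an adjusted p of 0.368. MRP20 had 254.3, 235.4 and 241.2 CPM in Psd1 pdr3Δ cells, against 258.4, 280.9 and 268.3 CPM in Psd1 PDR3 cells, groups that did not overlap, and -0.15 ± 0.07 on the log2 scale (adjusted p 0.4). With the replicate number as a block, 603 of all genes and 0 members were called.

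Under the Mge1 presequence, the deletion went with slightly higher values that did not pass the test. In MTS-Mge1 pdr3Δ over MTS-Mge1 PDR3 cells, 0 members passed by edgeR or DESeq2, against 0.728% of the 6184 genes called, and 6 reached an unadjusted p under 0.05 by edgeR and 7 by DESeq2, where 5.22% of all genes did by edgeR. The log2 fold change was positive for 52 members, against 50.5% of all genes. Its median was 0.11 in the large and 0.11 in the small subunit, against 0.002 for all genes tested. In 11 members all 3 pdr3Δ libraries stood above all 3 PDR3 libraries, as in 4.61% of all genes. MRPL31 had 154.6, 131.7 and 152.9 CPM in MTS-Mge1 pdr3Δ cells, against 116.2, 118.0 and 126.4 CPM in MTS-Mge1 PDR3 cells, groups that did not overlap, and a log2 fold change of 0.28 ± 0.09 (SE) and an adjusted p of 0.792. With the replicate number as a block 370 of all genes were called and, of the members, MRPL31 passed (adjusted p 0.0335), the only member to do so, while 16 members reached an unadjusted p under 0.05. MRP49 (YKL167C, mL61) had 100.3, 92.3 and 93.9 CPM in MTS-Mge1 pdr3Δ cells, against 77.8, 84.5 and 82.7 CPM in MTS-Mge1 PDR3 cells, and 0.22 ± 0.08 on the log2 scale (adjusted p 0.825). MRPL44 had 79.6, 82.3 and 86.5 CPM in MTS-Mge1 pdr3Δ cells, against 72.4, 82.0 and 73.9 CPM in MTS-Mge1 PDR3 cells, and 0.12 ± 0.09. The difference between the constructs in the effect of the deletion was tested as an interaction. It passed for 0 members by edgeR or DESeq2, with 4 at an unadjusted p under 0.05 by edgeR and 5 by DESeq2. Over the 6238 genes, 0.016% were called and 2.9% reached that p by edgeR. The interaction was positive for 6 members, with a median of -0.09, against 50.3% of all genes and a median of 0.0007. The largest was MRPL44 at -0.32 ± 0.11 (adjusted p 0.99991), followed by MRP49 at -0.26 ± 0.10.

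**Figure D5:**
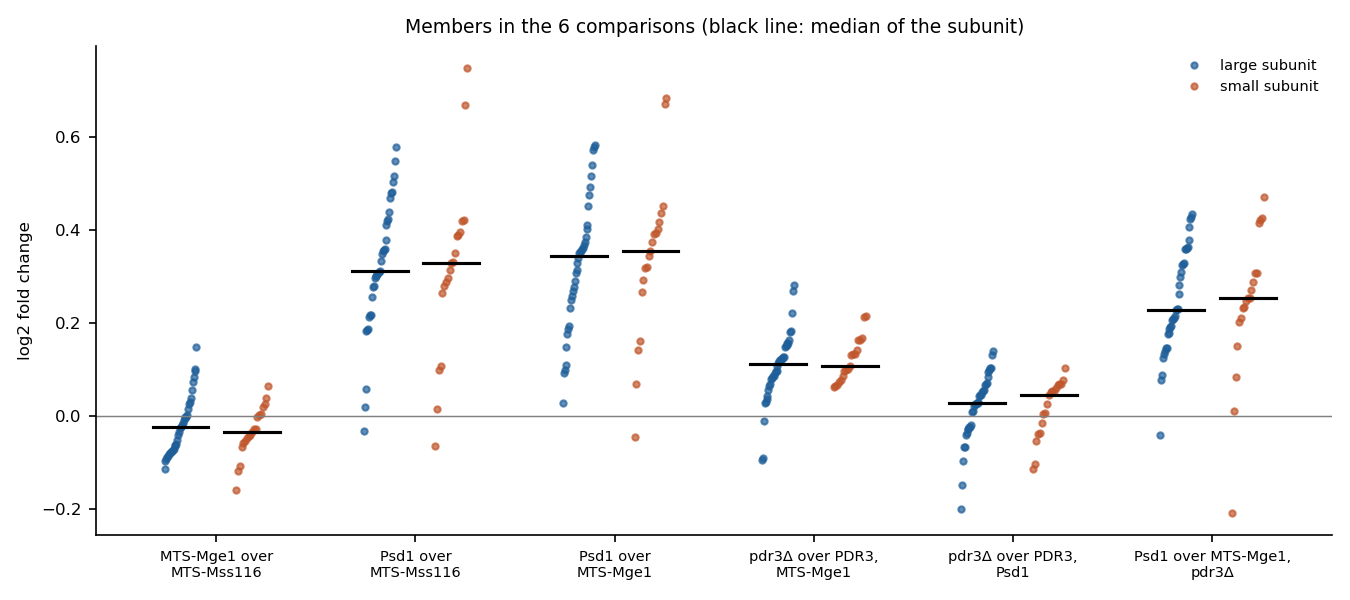
log2 fold change of the 36 large subunit genes (blue) and 19 small subunit genes (orange) in the 6 comparisons, with the median of each subunit as a black line. The medians lie near 0 for MTS-Mge1 over MTS-Mss116 and for the deletion under Psd1, near 0.11 for the deletion under MTS-Mge1, and between 0.23 and 0.36 for the comparisons of Psd1 with a presequence.

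Other genes of mitochondrial translation were followed in the same fits. The 21 further nuclear genes of the mitochondrial ribosome, all with the Puf3 element, had 6 higher and 0 lower in Psd1 PDR3 over MTS-Mss116 PDR3 cells (median log2 fold change 0.29), 9 and 0 over MTS-Mge1 PDR3 cells (0.31), and 6 and 0 between the pdr3Δ groups (0.24). MRX14 (0.58 ± 0.11), RTC6 (0.57 ± 0.11) and MHR1 (0.52 ± 0.12) had the largest changes among them in the first comparison. Of the 14 mitochondrial aminoacyl-tRNA synthetase genes, which also all hold the element, 2 rose in the first comparison and 3 in the second, MSF1 the most (0.51 ± 0.08 and 0.56 ± 0.08). Between the pdr3Δ groups 0 of the 14 passed by edgeR and 5 reached an unadjusted p under 0.05, with a median log2 fold change of 0.09. Of the 9 translation factors, 0 rose and 1 fell in the first comparison, MEF2, a mitochondrial factor of ribosome recycling, by 1.07 ± 0.11 on the log2 scale. MEF2 was also lower over MTS-Mge1 PDR3 cells (-0.68 ± 0.10) and between the pdr3Δ groups (-0.69 ± 0.12), where MRF1, a mitochondrial release factor, was higher (0.39 ± 0.08, adjusted p 0.0436). CBP6 and MSS51 rose among the 16 translational activators in the first comparison (0.43 ± 0.08 and 0.41 ± 0.08), CBP6 alone in the second (0.48 ± 0.08) and 0 between the pdr3Δ groups. Of the 7 assembly factors, 0 passed in any of these 3 comparisons by edgeR, and 1 reached an unadjusted p under 0.05 in each. PUF3 itself did not pass in any of the 6 comparisons, with a log2 fold change of 0.10 ± 0.11 in Psd1 PDR3 over MTS-Mss116 PDR3 cells, nor did HAP4, the regulated subunit of the CCAAT-binding activator, with -0.26 ± 0.18. HAP5, another subunit of it, was the 1 of 8 regulators listed that rose there (0.56 ± 0.09, adjusted p 0.0149). VAR1 (Q0140), the ribosomal protein encoded in mitochondrial DNA, had at most 1 count in any library of these mRNA preparations and was not tested.

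Genes with the Puf3 element outside the members and the lists followed here had smaller median differences. Of the nuclear genes with TGTANATA, 717 were outside the members and the lists of mitochondrial translation and oxidative phosphorylation. In Psd1 PDR3 over MTS-Mss116 PDR3 cells these had a median log2 fold change of 0.07, with 70 of the 717 called higher and 9 lower. All genes tested were called higher in 4.25% and lower in 1.91% of cases. With only the members left out, the 781 genes with the element had a median of 0.07, with 80 called higher and 12 lower. The 4954 genes without the element, again with only the members left out, had a median of -0.01, with 161 called higher and 96 lower. These 4954 thus include most genes of oxidative phosphorylation and of the cytosolic ribosome. The genes of oxidative phosphorylation and of the cytosolic ribosome had negative medians in the same comparisons. The 35 nuclear genes of oxidative phosphorylation had 28 lower and 0 higher in that comparison, with a median of -0.61, and 3 lower over MTS-Mge1 PDR3 cells, with a median of -0.29, and 2 lower between the pdr3Δ groups, with a median of -0.24. They summed to between 13633 and 15138 CPM in Psd1 PDR3 cells, against 22479 to 23561 CPM in MTS-Mss116 PDR3 cells. In MTS-Mge1 PDR3 cells they summed to between 16954 and 18153 CPM. Their median was also negative, -0.34, in MTS-Mge1 PDR3 over MTS-Mss116 PDR3 cells. There 0 were called and 30 of the 35 reached an unadjusted p under 0.05 by edgeR, where 7.02% of all genes did. The 138 cytosolic ribosomal protein genes had 2 lower and 0 higher in Psd1 PDR3 over MTS-Mss116 PDR3 cells, with a median of -0.51. They summed to between 80401 and 98525 CPM in Psd1 PDR3 cells, against 99352 to 150999 CPM in MTS-Mss116 PDR3 cells. Over MTS-Mge1 PDR3 cells and between the pdr3Δ groups, the medians of the cytosolic ribosomal protein genes were -0.36 and -0.26. Over all groups, the oxidative phosphorylation genes summed to at most 15138 CPM in the 6 libraries with Psd1 and to at least 15839 CPM in the other 9. The level of these abundant groups bears on the share of reads left for others, and CPM values are scaled to the TMM-normalized library size. After this scaling, the median log2 fold change of all genes tested was 0.01 in Psd1 PDR3 over MTS-Mss116 PDR3 cells. The part of these groups in the members' differences was not tested.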

How the data were processed

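RNA was sequenced from 15 libraries, 3 biological replicates in each of 5 groups, after Illumina Stranded mRNA preparation. The authors aligned the reads with DRAGEN to R64, counted them per gene with featureCounts and deposited raw counts in a single table of 7127 rows. The strand setting of the counting and any sequencing batch are not given in the sources used here. Libraries held 9128340 to 15953700 counts.

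From these counts, edgeR (4.0.16, R 4.3.3) computed TMM factors, dropped low genes with filterByExpr and fitted the 2 groups of each of 6 comparisons with its quasi-likelihood test, with Benjamini-Hochberg adjustment over all genes tested and a threshold of 0.05. An overall test used all 5 groups, and an interaction test used the 4 groups with Psd1 or MTS-Mge1. CPM values are counts scaled to the TMM-normalized library size. Intervals are 95% intervals of the fit. The scripts were tested on simulated data. Python 3.11.15 matched 6047 rows to RefSeq gene models of R64 and read the motifs.

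Members and lists were chosen with earlier results of these data known. Genes named were, in each comparison, up to 5 called members of the largest change (the 2 of smallest p where none was called), the members of highest and lowest CPM per kb in each subunit, MRPL16, up to 5 members of each subunit with the smallest p over the 5 groups, and VAR1, PUF3, HAP4 and up to 3 called genes of each list. The other members given with values, such as MRPL9, were named after their values were seen. Replicate numbers come from the labels. Same-numbered libraries deviated together in the deletion comparisons. Their correlations were 0.20, 0.34 and 0.56 under MTS-Mge1 and 0.14, 0.34 and 0.44 under Psd1. The main fits did not use this pairing, which entered only through the block for the replicate number, an alternative. Alternatives were DESeq2 (1.42.0), RLE size factors, total library size, no filter on low counts, a stricter filter (10 counts or more in each library), a joint fit of all 5 groups, a block for the replicate number, and each library left out in turn. An exact permutation test of 3 libraries against 3 cannot go below a two-sided p of 0.1 and was not used.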

Additional observations from a re-analysis of the deposited data

How the results depend on the processing

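The log2 fold changes of the members named kept their sign under each alternative run, except for RSM22, MRPL9 and RSM23, whose values lay near 0. RSM22 in Psd1 PDR3 over MTS-Mge1 PDR3 cells was 0.043 without MTS-Mge1 PDR3 replicate 1, in a range from -0.10 to 0.043 over libraries left out. In Psd1 PDR3 over MTS-Mss116 PDR3 cells, MRPL9 was 0.039 without MTS-Mss116 PDR3 replicate 3, in a range from -0.12 to 0.039. RSM23 was -0.00079 with DESeq2, -0.00103 with RLE size factors and -0.0075 with no filter, and -0.00493 and -0.061 without Psd1 PDR3 replicate 1 or 3 and -0.060 without MTS-Mss116 PDR3 replicate 2, in a range from -0.061 to 0.057. The counts of calls moved. In Psd1 PDR3 over MTS-Mss116 PDR3 cells, 12 members were higher, against 28 with DESeq2, 20 with total library size, 37 with all 5 groups in one fit, 27 with the replicate block and 1 to 23 with a library left out. Over all genes 380 were called, against 930 with DESeq2, 375 with total library size, 988 in one fit and 867 with the block. With a library left out, 50 to 1503 of all genes were called there. Over MTS-Mge1 PDR3 cells, 22 were higher, against 38 with DESeq2, 35 with all 5 groups in one fit, 43 with the replicate block and 2 to 25 with a library left out. Over all genes 301 were called, against 645, 427 and 1153 with these 3 settings and 41 to 426 with a library left out. Between the pdr3Δ groups, 6 were higher, against 17 with DESeq2, 2 with RLE size factors, with total library size, with no filter and with at least 10 counts in every library, 19 with all 5 groups in one fit, 31 with the replicate block and 0 to 6 with a library left out. Over all genes 242 were called, against 587 with DESeq2, 186 to 231 with the 4 scaling and filter settings, 463 in one fit and 949 with the block. Between these groups, 3 to 326 of all genes were called with a library left out. With total library size, calls among the members thus numbered 20, 20 and 2 in the 3 comparisons, against 12, 22 and 6. A library left out also leaves fewer samples, and the cause of the other shifts was not tested. Under the deletion in MTS-Mge1 cells the replicate block gave 1 member, MRPL31, against 0. It changed no other member's call in the deletion comparisons. In the comparisons between constructs the numbers missed the rule set for pairs, a correlation above 0.1 in every replicate. The lowest correlations were 0.096 and 0.078 for Psd1 PDR3 over MTS-Mss116 PDR3 and MTS-Mge1 PDR3 cells, 0.07 between the pdr3Δ groups and -0.10 for MTS-Mge1 PDR3 over MTS-Mss116 PDR3 cells. The highest were 0.52, 0.46, 0.42 and 0.57 in the same order, so a shared effect of the number is not excluded. A library correlated best with its own number in 4, 5, 6 and 4 of 6 cases in the same order, a hint from the data only. The members called across the 5 groups numbered 31 to 39 with a library left out, where 690 to 1206 of all genes were called. The interaction gave 0 members under every alternative.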
